A study of Mus musculus with 24 samples.

Results

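The 10 genes described here encode enzymes and one accessory protein that make prostaglandins, thromboxane and leukotrienes: Ptgs1, Ptgs2, Ptges, Ptges2, Ptges3, Tbxas1, Hpgds, Alox5, Alox5ap and Lta4h. They were listed by symbol and matched by Ensembl gene ID to 10 of the 55414 gene lines of the count files, and all 10 passed the filter on low counts in each fit. Ptgs2 and Tbxas1 were picked because they moved in opposite directions with the compound AZD5582, so their responses to it are described and not tested. The other 8 genes were listed by function.

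The samples are mRNA libraries of dendritic cells, which present antigen to T cells, from cultures of mouse bone marrow. The mice were Cas9-EGFP or C57BL/6JRj wild-type, and the sources used here do not give which genotype a sample has. GM cultures received 20 ng/ml GM-CSF and started the experiment at day 8, or day 9 by another of the labels' protocols; the series calls them moDCs. FL cultures received FLT3L at 200 ng/ml beside the 20 ng/ml of GM-CSF and started at day 16; the series calls them cDC1. A t0 group was taken at that start. The other groups had 24 h with the solvent DMSO or with AZD5582, a SMAC mimetic that antagonizes inhibitor of apoptosis proteins, at 0.1, 0.5 or 1 µM in GM cultures and at 0.05 µM in FL cultures. Each of the 8 groups had 3 libraries, numbered 1, 2 and 3 in GM cultures, where all carry the culture name DC105, and named for cultures 91, 94 and 95 in FL cultures. Whether the 3 GM libraries of a group came from separate animals is not given, so p-values measure only the spread between these samples, which may be technical.

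Eicosanoids are short-lived lipid signals made from arachidonic acid, which phospholipases cut from membranes. The cyclooxygenases, constitutive Ptgs1 (COX-1) and inducible Ptgs2 (COX-2), convert it to prostaglandin H2, which terminal synthases turn into prostaglandin E2 (Ptges, Ptges2, Ptges3), prostaglandin D2 (Hpgds) or thromboxane A2 (Tbxas1). On the other branch, 5-lipoxygenase (Alox5), helped by its activating protein (Alox5ap), makes leukotriene A4, which the hydrolase Lta4h converts to leukotriene B4. In dendritic cells prostaglandin E2 is known for its effect on maturation and migration, and leukotriene B4 is a chemoattractant of leukocytes.

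The libraries held 27012555 to 85820558 counts on genes. Values are CPM, counts scaled to a common library size, after TMM, a normalization for differing RNA composition. A gene was called changed at an adjusted p under 0.05 in the quasi-likelihood test of edgeR, adjusted by Benjamini-Hochberg over the genes of the fit, and every adjusted p below is of that kind. In bulk RNA, fewer cells of a type and less RNA per cell cannot be told apart. The labelled cell types were compared with marker lists. Of 9 cDC1 markers, none was at 0 in FL cultures, where their summed level was 2386 to 5581 CPM at t0. In GM cultures at t0 it was 516 to 641 CPM, and Xcr1, the chemokine receptor that defines cDC1, had 0.105 to 0.165 CPM. The sum is not specific to cDC1: in GM cultures at 1 µM it was 2218 to 2294 CPM, with Xcr1 at 0. In FL cultures mean Xcr1 was 212 CPM at t0, 16.6 CPM in DMSO and 2.07 CPM with AZD5582. Of the 9 markers there, 1 was called higher and 2 lower from t0 to DMSO, against 10.1% of all genes tested. From DMSO to AZD5582 0 were called higher and 3 lower, against 2.90%. The 12 monocyte and macrophage markers summed to 19361 to 24796 CPM in GM and 792 to 965 CPM in FL cultures at t0. FL cultures also held 1259 to 4193 CPM of 12 neutrophil markers, 172 to 629 CPM of 10 mast cell markers, with Tpsab1 and Mcpt4 at 0, and 272 to 1091 CPM of 6 basophil and eosinophil markers.

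In FL cultures the libraries of culture 91 stood apart in some marker sums and those of culture 94 in others. At t0 the cDC1 markers summed to 5581 CPM in culture 91, against 2386 and 2761 CPM in cultures 94 and 95. In DMSO the markers of mature dendritic cells summed to 28415 against 10526 and 13179 CPM. The neutrophil markers were highest in culture 94. They summed to 4193 CPM there at t0, against 1259 and 2105 CPM in cultures 91 and 95. In DMSO they summed to 9833 against 2035 and 4013 CPM. Results for FL cultures are given with and without culture 91, and no fit left out all of culture 94. Samples with the same culture number deviated together in FL cultures (correlations of 0.12 to 0.81 over 9 pairs), so a fit with the culture number as a block is given beside those results where it moves a count by over 1.5 times. It is also given for the leukotriene branch and Ptges at 0.05 µM.

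With AZD5582 in GM cultures, Ptgs2 and Ptges3 were higher than in DMSO and the other 8 members were lower, across both the cyclooxygenase and the lipoxygenase branch. Of the 8 members tested, 7 were called at 0.1 µM (1 higher, 6 lower), when 40.3% of all 16152 genes tested were called (19.9% higher, 20.3% lower). At 0.5 µM 8 of 8 were called (1 higher, 7 lower), against 53.5% of all genes (25.8% higher, 27.7% lower), and at 1 µM again 8 of 8 (1 higher, 7 lower), against 55.1% (26.9% higher, 28.2% lower). Their median log2 change was -1.03, -1.48 and -1.70 at the 3 doses, beside medians of -0.01, -0.03 and -0.01 over all genes tested. At every dose the ranges of all 8 members tested lay apart from the DMSO range, as they did in 52.8%, 62.8% and 57.8% of all genes. Those of Ptgs2 and Tbxas1, picked for this response, lay apart too, which is a description only. The 3 dose comparisons share the DMSO libraries.

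**Figure D1:**
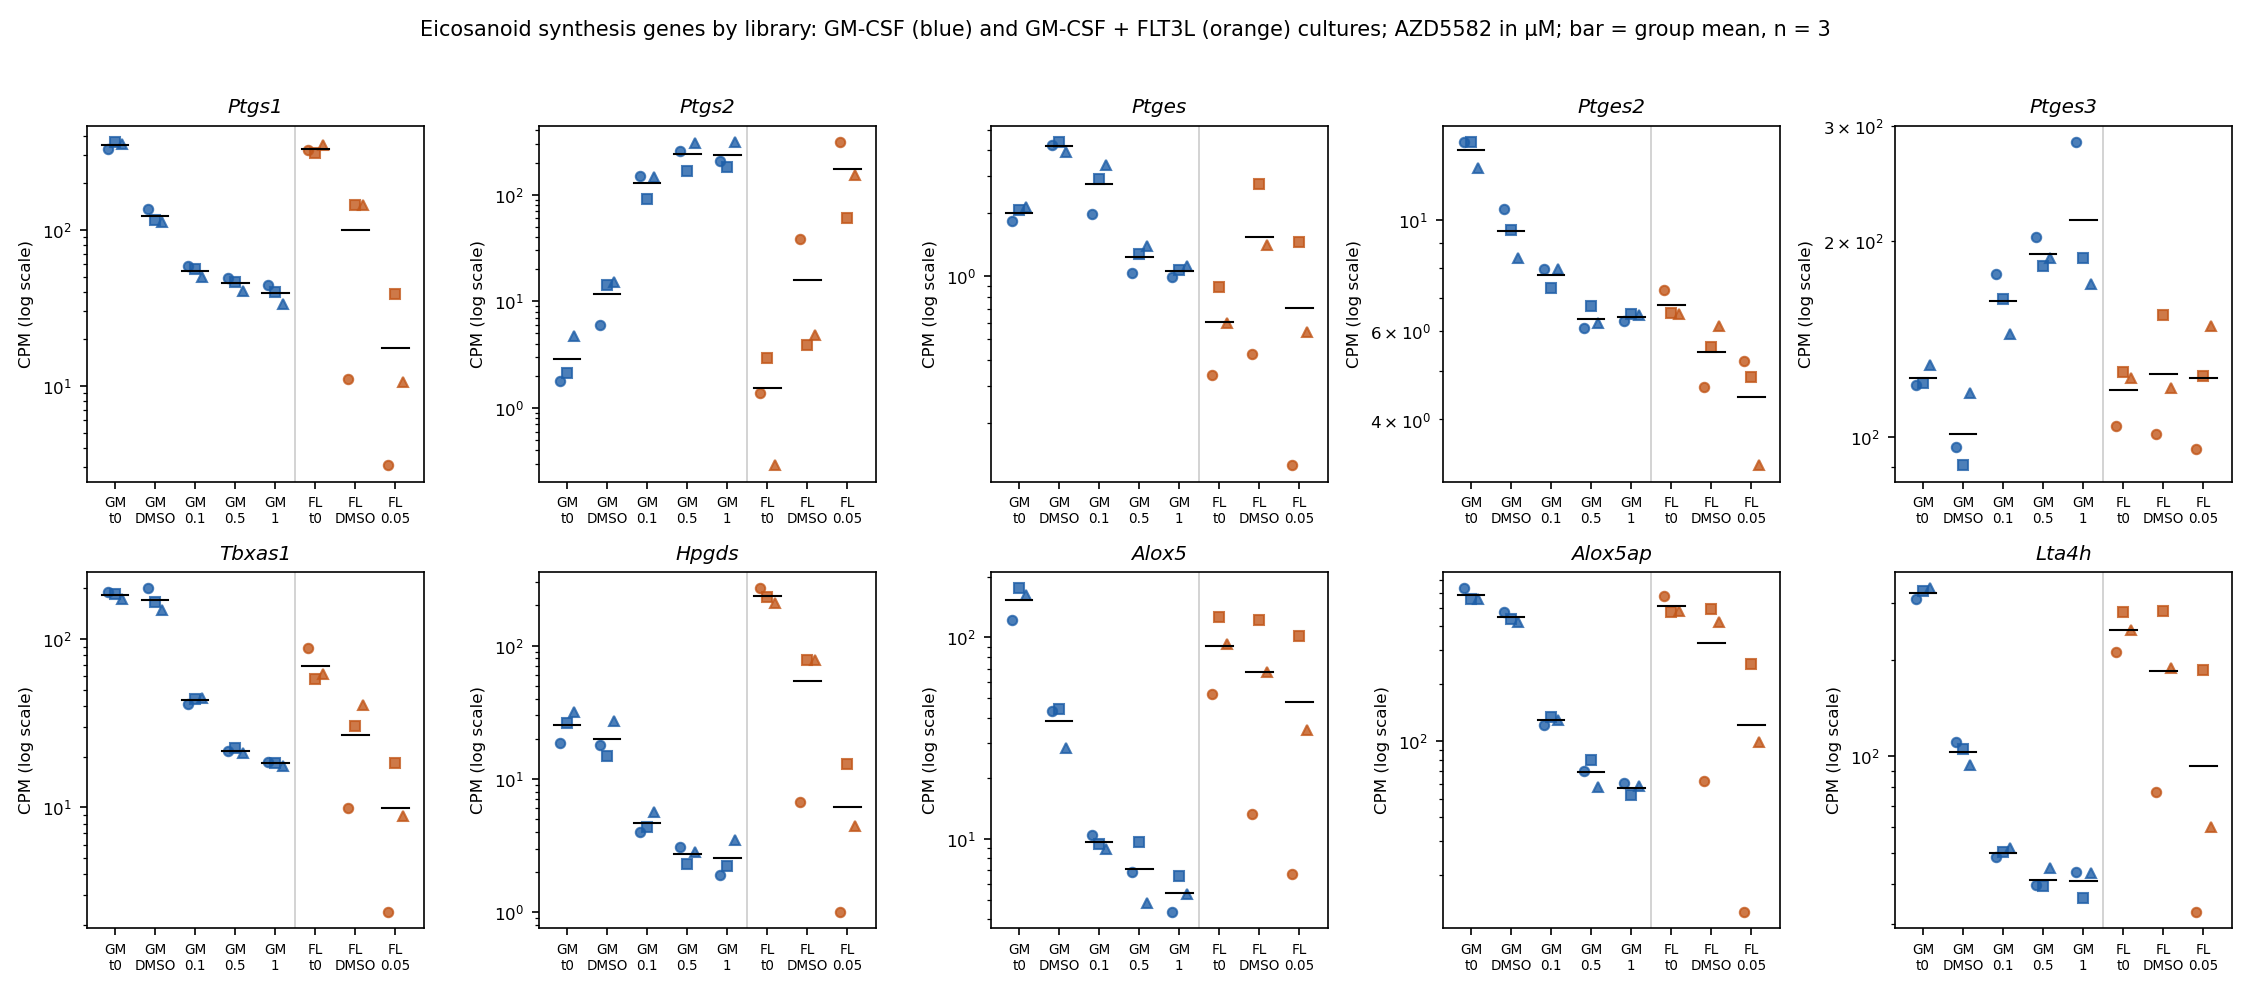
Level of each of the 10 genes in each library (CPM, log scale; circles, squares and triangles are replicates 1, 2 and 3 or cultures 91, 94 and 95; bars are group means, n = 3). In GM cultures Ptgs2 and Ptges3 lie above the DMSO libraries at all 3 AZD5582 doses and the other 8 lie below, and in FL cultures the circles of culture 91 lie far from the others after 24 h for most genes.

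Ptgs2, on chromosome 1, is the inducible cyclooxygenase. In GM cultures it had 1.80, 2.14 and 4.77 CPM at t0 and 5.99, 14.2 and 15.1 CPM in DMSO. With AZD5582 it had 148, 91.7 and 147 CPM at 0.1 µM, 254, 168 and 306 CPM at 0.5 µM, and 206, 182 and 312 CPM at 1 µM. Each AZD5582 library lay above each DMSO library, and the 0.5 and 1 µM ranges overlapped. As a description, the log2 difference from DMSO was 3.53 ± 0.44 (SE) at 0.1 µM, 4.47 ± 0.45 at 0.5 µM and 4.42 ± 0.45 at 1 µM. Ptgs2 had already risen between t0 and DMSO, by a log2 change of 2.00 ± 0.45 (adjusted p = 0.00275), with higher values in 3 of 3 same-numbered libraries.

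Ptgs1, on chromosome 2, fell from t0 to DMSO and was lower still with AZD5582. It had 329, 367 and 353 CPM at t0, 136, 116 and 113 CPM in DMSO, 58.8, 55.8 and 49.7 CPM at 0.1 µM, 49.5, 46.3 and 40.7 CPM at 0.5 µM, and 44.2, 39.8 and 33.3 CPM at 1 µM. The ranges of t0, DMSO and 0.1 µM lay apart from all others, and those of 0.5 and 1 µM overlapped. It fell by 1.53 ± 0.12 (log2, SE) from t0 to DMSO (adjusted p = 8.24e-09) and by a further 1.53 ± 0.12 from DMSO to 1 µM (adjusted p = 5.88e-09). Per kilobase of exon, which allows the levels of the pair to be compared, the Ptgs2 level was 0.00701 ± 0.00384 of the Ptgs1 level at t0 (mean ± SD, n = 3). The ratio of levels was 0.0848 ± 0.0415 in DMSO, 2.01 ± 0.565 at 0.1 µM, 4.60 ± 1.65 at 0.5 µM and 5.26 ± 2.33 at 1 µM. In a fit that also held the FL libraries, Ptgs1 was called neither from t0 to DMSO (adjusted p = 0.0843) nor at any dose (0.0533 to 0.223). Ptgs1 was the more abundant cyclooxygenase transcript in all 6 GM libraries without AZD5582, and Ptgs2 in all 9 with it.

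Sequences before the start sites of the pair and of Tbxas1 and Alox5, whose levels fell, are shown to set Ptgs2 beside members that fell. The sequence of Ptges3, which also rose, is not shown. Each run is the 250 bases before the RefSeq start in GRCm38.p6, read 5′ to 3′ on the gene's strand. Capitals mark matches, on either strand, to any of 9 short motifs: NF-kB (by its consensus), C/EBP (TTNCGNAA), CRE (TGACGTCA), the E-box (CACGTG), the AP-1 site (TGANTCA), the PU.1 site (GAGGAA), the TATA box (TATAAA), the GC box (GGGCGG) and ISRE (by its consensus). The regions are chr1:150099781-150100030 on the plus strand for Ptgs2, chr2:36230176-36230425 plus for Ptgs1, chr6:38918736-38918985 plus for Tbxas1 and chr6:116461179-116461428 minus for Alox5.
Ptgs2: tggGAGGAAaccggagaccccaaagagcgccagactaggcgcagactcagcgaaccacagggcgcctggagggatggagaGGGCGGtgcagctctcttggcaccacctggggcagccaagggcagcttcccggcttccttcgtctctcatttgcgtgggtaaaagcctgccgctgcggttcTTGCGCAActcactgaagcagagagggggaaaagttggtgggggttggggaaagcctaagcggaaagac
Ptgs1: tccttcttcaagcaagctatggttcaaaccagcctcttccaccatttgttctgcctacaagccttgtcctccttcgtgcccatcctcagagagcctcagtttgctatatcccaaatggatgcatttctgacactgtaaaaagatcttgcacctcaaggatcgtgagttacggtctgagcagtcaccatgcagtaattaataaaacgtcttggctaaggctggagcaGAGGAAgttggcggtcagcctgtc
Tbxas1: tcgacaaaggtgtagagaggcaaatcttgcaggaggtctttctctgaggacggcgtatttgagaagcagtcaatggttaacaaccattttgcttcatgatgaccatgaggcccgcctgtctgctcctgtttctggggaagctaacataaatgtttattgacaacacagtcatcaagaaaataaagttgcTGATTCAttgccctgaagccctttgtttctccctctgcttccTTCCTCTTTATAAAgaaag
Alox5: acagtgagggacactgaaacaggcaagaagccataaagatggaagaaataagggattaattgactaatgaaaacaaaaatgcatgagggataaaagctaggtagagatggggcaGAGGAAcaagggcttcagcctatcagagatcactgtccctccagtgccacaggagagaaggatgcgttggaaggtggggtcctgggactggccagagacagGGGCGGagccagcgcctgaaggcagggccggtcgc
The Ptgs2 window held a C/EBP match, TTGCGCAA, at -69 to -62 from the start, a GC box at -170 to -165 and a PU.1 match at -247 to -242. C/EBP matches occurred in 2.04% of 32851 RefSeq promoter windows of the same length, GC boxes in 32.7% and PU.1 matches in 23.3%. PU.1 matches also stood in the windows of Ptgs1 (-24 to -19), Tbxas1 (-19 to -14, on the minus strand) and Alox5 (-136 to -131). Tbxas1 further held an AP-1 match, TGATTCA, at -61 to -55 (6.75% of windows) and a TATA match at -11 to -6 (12.4%), which overlaps another on the minus strand at -13 to -8. Of the other members with a sequence, Ptges, Hpgds and Lta4h held PU.1 matches too, and Ptges2 an E-box. Ptges3, the other member that rose, held 3 GC boxes and no C/EBP match. None of the 9 windows held the NF-kB consensus, which 3.9% of all windows did. With so low a share, none in 9 windows says little, and bases outside the windows were not searched. A match is a run of letters only, and no binding was measured.

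Among the terminal synthases of prostaglandin E2, Ptges3 rose and Ptges and Ptges2 fell. Ptges3, on chromosome 10, is the cytosolic synthase and also the HSP90 co-chaperone p23. It had 96.6, 90.4 and 117 CPM in DMSO, 178, 163 and 144 CPM at 0.1 µM, 203, 183 and 188 CPM at 0.5 µM and 284, 188 and 172 CPM at 1 µM. Its log2 change was 0.75 ± 0.16 at 0.1 µM (adjusted p = 0.000991), 1.01 ± 0.16 at 0.5 µM (3.49e-05) and 1.20 ± 0.16 at 1 µM (4.94e-06). The highest value, 284 CPM, came from replicate 1 at 1 µM, the library with the highest mitochondrial share in the series (8.04% of gene counts), and the part of that share in the value was not tested. A pseudogene copy, Ptges3-ps, is annotated, and reads shared with it make this level uncertain.

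Ptges, on chromosome 2, is the microsomal, inducible synthase that couples with COX-2. Its levels were low throughout: 1.83, 2.08 and 2.13 CPM at t0, 4.24, 4.38 and 3.91 CPM in DMSO, and 0.994, 1.07 and 1.12 CPM at 1 µM. It rose from t0 to DMSO by 1.04 ± 0.21 (log2, adjusted p = 0.000427) and was lower at 1 µM than in DMSO, by a log2 change of -1.87 ± 0.22 (adjusted p = 9.8e-07), while Ptgs2 was higher at both steps. At 0.1 µM, with 1.99, 2.91 and 3.38 CPM, its log2 change of -0.53 ± 0.21 had an adjusted p of 0.0497, and the call was lost in 9 of 12 alternatives, among them the omission of any DMSO library or of replicate 1 or 2 at 0.1 µM (adjusted p 0.0614 to 0.231). Ptges2, the membrane-associated synthase on chromosome 2, had 10.5, 9.53 and 8.39 CPM in DMSO and 6.29, 6.48 and 6.47 CPM at 1 µM (log2 change -0.46 ± 0.12, adjusted p = 0.00311). At 0.1 µM it was not called (-0.22 ± 0.12, adjusted p = 0.149). Per kilobase, Ptges stood at 0.0237 ± 0.00431 of Ptges3 in DMSO and 0.00294 ± 0.000869 at 1 µM.

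The synthases of the other prostanoids were lower at each dose. Tbxas1, thromboxane A synthase on chromosome 6, had 190, 186 and 174 CPM at t0 and 200, 166 and 148 CPM in DMSO. It had 41.0, 44.1 and 44.9 CPM at 0.1 µM, 21.5, 22.4 and 20.9 CPM at 0.5 µM and 18.7, 18.4 and 17.7 CPM at 1 µM. The libraries of a dose lay close together, with a coefficient of variation of 2.79% at 1 µM, against 29.7% for Ptgs2. As a description, Tbxas1 differed from DMSO by -1.91 ± 0.10, -2.89 ± 0.10 and -3.12 ± 0.10 (log2, SE) at the 3 doses. Between t0 and DMSO it was not called (-0.11 ± 0.09, adjusted p = 0.371), except when replicate 1 of DMSO was left out (-0.23 ± 0.09, adjusted p = 0.0488).

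Hpgds, the hematopoietic prostaglandin D synthase on chromosome 6, had 17.9, 14.8 and 27.3 CPM in DMSO, 4.02, 4.36 and 5.68 CPM at 0.1 µM and 1.91, 2.21 and 3.48 CPM at 1 µM. Its log2 change was -2.01 ± 0.25 at 0.1 µM (adjusted p = 5.92e-06) and -2.86 ± 0.27 at 1 µM (8.41e-08). Between t0 and DMSO it was not called (-0.36 ± 0.23, adjusted p = 0.225), but it was without replicate 3 of DMSO (-0.65 ± 0.23, adjusted p = 0.032) and without a filter on low counts (-0.38 ± 0.15, adjusted p = 0.0388).

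All 3 members of the leukotriene branch fell. Alox5, 5-lipoxygenase on chromosome 6, had 122, 175 and 162 CPM at t0, 43.2, 44.2 and 28.2 CPM in DMSO, 10.5, 9.46 and 8.95 CPM at 0.1 µM and 4.33, 6.51 and 5.35 CPM at 1 µM. Alox5ap, on chromosome 5, presents arachidonic acid to 5-lipoxygenase. It had 630, 553 and 554 CPM at t0, 474, 438 and 423 CPM in DMSO, 122, 134 and 130 CPM at 0.1 µM and 60.5, 52.2 and 58.1 CPM at 1 µM. Alox5 fell at both steps, and most of the difference in Alox5ap lay between DMSO and AZD5582. The log2 change from t0 to DMSO was -2.00 ± 0.22 for Alox5 (adjusted p = 2.4e-06) and -0.39 ± 0.11 for Alox5ap (0.00719). From DMSO to 1 µM it was -2.73 ± 0.24 for Alox5 (1.09e-07) and -2.86 ± 0.12 for Alox5ap (4.11e-12).

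Lta4h, on chromosome 10, makes leukotriene B4. It had 310, 327 and 334 CPM at t0, 111, 105 and 93.7 CPM in DMSO, 48.3, 50.1 and 51.7 CPM at 0.1 µM and 43.5, 36.2 and 43.1 CPM at 1 µM. The log2 change was -1.66 ± 0.09 from t0 to DMSO (adjusted p = 1.26e-10) and -1.23 ± 0.09 from DMSO to 1 µM (3.78e-09). Between DMSO and t0, 7 of 10 members were called (2 higher, 5 lower), against 47.5% of all genes tested (27.2% higher, 20.3% lower). Ptgs2 and Ptges were higher, Ptgs1, Ptges2, Alox5, Alox5ap and Lta4h lower, and Ptges3, Tbxas1 and Hpgds not called. Ptges3 was called without a filter (-0.32 ± 0.11, adjusted p = 0.0169) and with only the groups compared in the fit (-0.34 ± 0.10, adjusted p = 0.0129). Time in culture and solvent differ together in that comparison. With the FL libraries in the same fit, Ptgs2 (0.0534), Ptges (0.167) and Alox5ap (0.693) were not called between t0 and DMSO either, nor were Alox5ap (0.0501) and Lta4h (0.0814) at 0.1 µM.

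**Figure D2:**
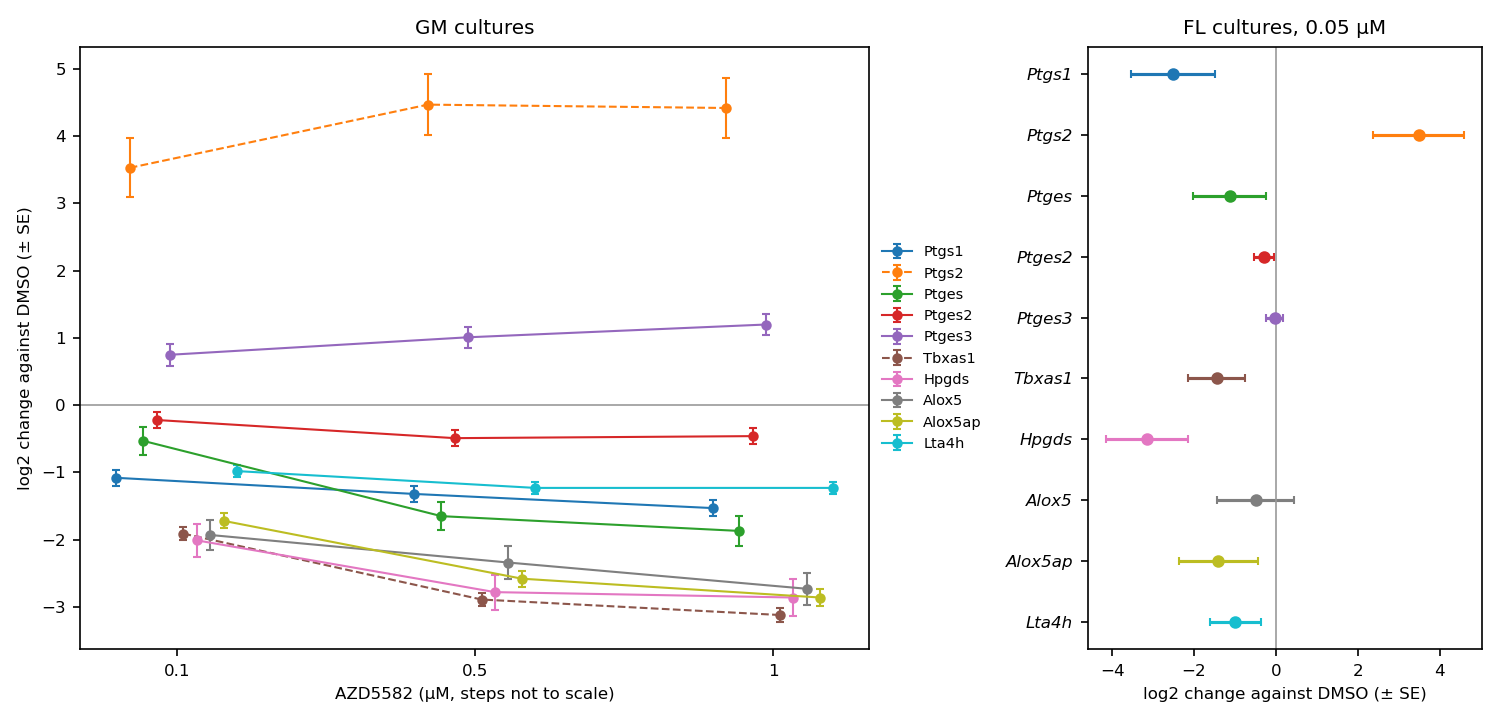
Log2 change against DMSO (± SE) of each gene at 0.1, 0.5 and 1 µM AZD5582 in GM cultures (left; points shifted sideways to separate them, dashed lines for Ptgs2 and Tbxas1, which were picked for their responses) and at 0.05 µM in FL cultures (right), from groups of 3 libraries. In GM cultures Ptgs2 lies between 3.53 and 4.47 and Tbxas1 between -1.91 and -3.12, and the errors in FL cultures are wider.

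The step from 0.1 to 1 µM, which uses no DMSO library, called 5 of 8 members, all lower, against 18.8% of all genes tested (11.9% lower). Alox5ap fell by 1.14 ± 0.11 on the log2 scale (adjusted p = 2.61e-06) and Ptges by 1.34 ± 0.22 (0.000319). Hpgds fell by 0.85 ± 0.27 (0.0359), Alox5 by 0.80 ± 0.24 (0.0317) and Ptgs1 by 0.45 ± 0.12 (0.0136). With the FL libraries in the same fit none of the 5 was called (adjusted p 0.226 to 0.777). The calls of the last 3 were also lost when single libraries were left out. For Hpgds these were replicates 2 and 3 at 0.1 µM and 1 and 2 at 1 µM (adjusted p 0.0646 to 0.157), beside a fit of only the groups compared (0.0566), and for Ptgs1 replicate 1 at 0.1 µM (0.0555) and replicate 3 at 1 µM (0.0641). For Alox5 they were every library but replicate 2 at 1 µM (0.0542 to 0.161). Ptges3 was at 0.45 ± 0.16 (adjusted p = 0.0527), Lta4h at -0.25 ± 0.09 (0.0698) and Ptges2 at -0.24 ± 0.12 (0.188). As a description, Ptgs2 differed by 0.89 ± 0.39 and Tbxas1 by -1.21 ± 0.10. The replicate numbers of those 2 groups correlated at 0.15 to 0.40, and with the number as a block Ptges3 was called as well (0.44 ± 0.14, adjusted p = 0.0356). Ptges3 was also called with DESeq2 (0.0228), with median-of-ratios scaling (0.0415), without a filter (0.000962) and without replicate 1 at 0.1 µM or replicate 2 or 3 at 1 µM (0.0104 to 0.0498). Lta4h was called without replicate 1 at 1 µM (-0.32 ± 0.09, 0.0255).

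Marker genes of several cell types also differed in GM cultures. At 1 µM against DMSO 11 of 12 monocyte and macrophage markers and 12 of 12 neutrophil markers were lower, and 9 of 9 markers of mature dendritic cells were higher. Of all genes tested, 26.9% were called higher and 28.2% lower. Of 8 cDC1 markers tested, 3 were higher and 3 lower. Of 6 basophil and eosinophil markers 4 were higher and 1 lower, and of 5 lymphocyte markers tested 3 were higher. The summed macrophage markers were at 29015 to 35483 CPM in DMSO and 3966 to 5210 CPM at 1 µM. The neutrophil sum went from 806 to 986 CPM down to 37.8 to 81.9 CPM, with Elane at 0 at 1 µM, and the mature dendritic cell sum from 9192 to 11885 CPM up to 49146 to 77346 CPM. Of 10 mast cell markers 2 rose, and Mcpt4 was at 0 in DMSO and at 1 µM. The 7 platelet and megakaryocyte markers, a lineage in which Tbxas1 and Ptgs1 are known, summed to 82.6 to 110 CPM in DMSO and 23.3 to 41.9 CPM at 1 µM. Of 6 tested, 2 were called lower. At t0 they summed to 22.8 to 23.9 CPM, with mean Tbxas1 at 183 CPM and mean Ptgs1 at 350 CPM. The part of these cells in the members' changes was not tested.

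In FL cultures at 0.05 µM, Ptgs2 was again higher than in DMSO and Tbxas1 lower in each of the 3 cultures, but no tested member passed the threshold. Of 8 members 0 were called with edgeR, against 2.90% of all 15961 genes tested; 2 had an unadjusted p under 0.05, DESeq2 called 1 (Hpgds), and a fit with the culture number as a block called 0 while calling 1098 genes in place of 463. Ptgs2 had 38.4, 3.93 and 4.78 CPM in DMSO and 313, 60.7 and 152 CPM with AZD5582 in cultures 91, 94 and 95. Its DMSO and AZD5582 ranges did not overlap. Of the 8 members tested, 0 had ranges apart, against 18.8% of all genes. Tbxas1 had 9.96, 30.5 and 40.4 CPM in DMSO and 2.38, 18.4 and 8.89 CPM with AZD5582. As a description, the log2 differences were 3.48 ± 1.11 for Ptgs2 and -1.45 ± 0.69 for Tbxas1. In simulated data this comparison recovered 2% of 2-fold and 62% of 4-fold changes. The 0 calls therefore do not show that members were unchanged.

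Of the members tested, Ptgs1, Ptges, Hpgds, Alox5, Alox5ap and Lta4h were lower in the AZD5582 library of all 3 cultures, while Ptges2 and Ptges3 were lower in 2 of 3. Hpgds had 6.75, 78.3 and 77.5 CPM in DMSO and 1.00, 12.9 and 4.43 CPM with AZD5582 (log2 change -3.15 ± 1.01, adjusted p = 0.147). Ptgs1 had 11.0, 144 and 145 CPM in DMSO and 3.09, 38.8 and 10.6 CPM with AZD5582 (-2.52 ± 1.02, adjusted p = 0.244). In both genes the DMSO library of culture 91 lay within the range of the AZD5582 libraries. Without culture 91, 2 of 8 members were called, both lower: Hpgds (-3.13 ± 0.47, adjusted p = 0.0118) and Ptgs1 (-2.52 ± 0.57, adjusted p = 0.0435). With only the DMSO library of culture 91 left out, Hpgds was called (-3.64 ± 0.80, adjusted p = 0.0289).

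The leukotriene branch had wide intervals in FL cultures in the fit without a block. Alox5 had 13.3, 122 and 67.6 CPM in DMSO and 6.71, 102 and 34.6 CPM with AZD5582, a log2 change of -0.50 ± 0.94 with a 95% interval of -2.64 to 1.63. Alox5ap had 61.8, 491 and 421 CPM in DMSO and 12.8, 255 and 99.1 CPM with AZD5582 (-1.41 ± 0.96, interval -3.58 to 0.76). Lta4h had 77.6, 284 and 189 CPM in DMSO and 32.6, 186 and 60.2 CPM with AZD5582 (-0.99 ± 0.63, interval -2.43 to 0.45). Culture 94 was highest and culture 91 lowest in both groups for all 3 genes. With the culture number as a block the errors were smaller. The log2 changes were then -0.68 ± 0.45 for Alox5, -1.62 ± 0.80 for Alox5ap and -1.13 ± 0.37 for Lta4h, and none was called (adjusted p 0.119 to 0.384). Of the prostaglandin E2 synthases, Ptges had 0.426, 2.75 and 1.41 CPM in DMSO and 0.125, 1.45 and 0.543 CPM with AZD5582 (-1.13 ± 0.89, adjusted p = 0.566). With the block Ptges was at -1.27 ± 0.45 (adjusted p = 0.139). Ptges2 (-0.30 ± 0.24, adjusted p = 0.577) and Ptges3 (-0.03 ± 0.21, adjusted p = 0.968) had the smallest differences of the 10.

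**Figure D3:**
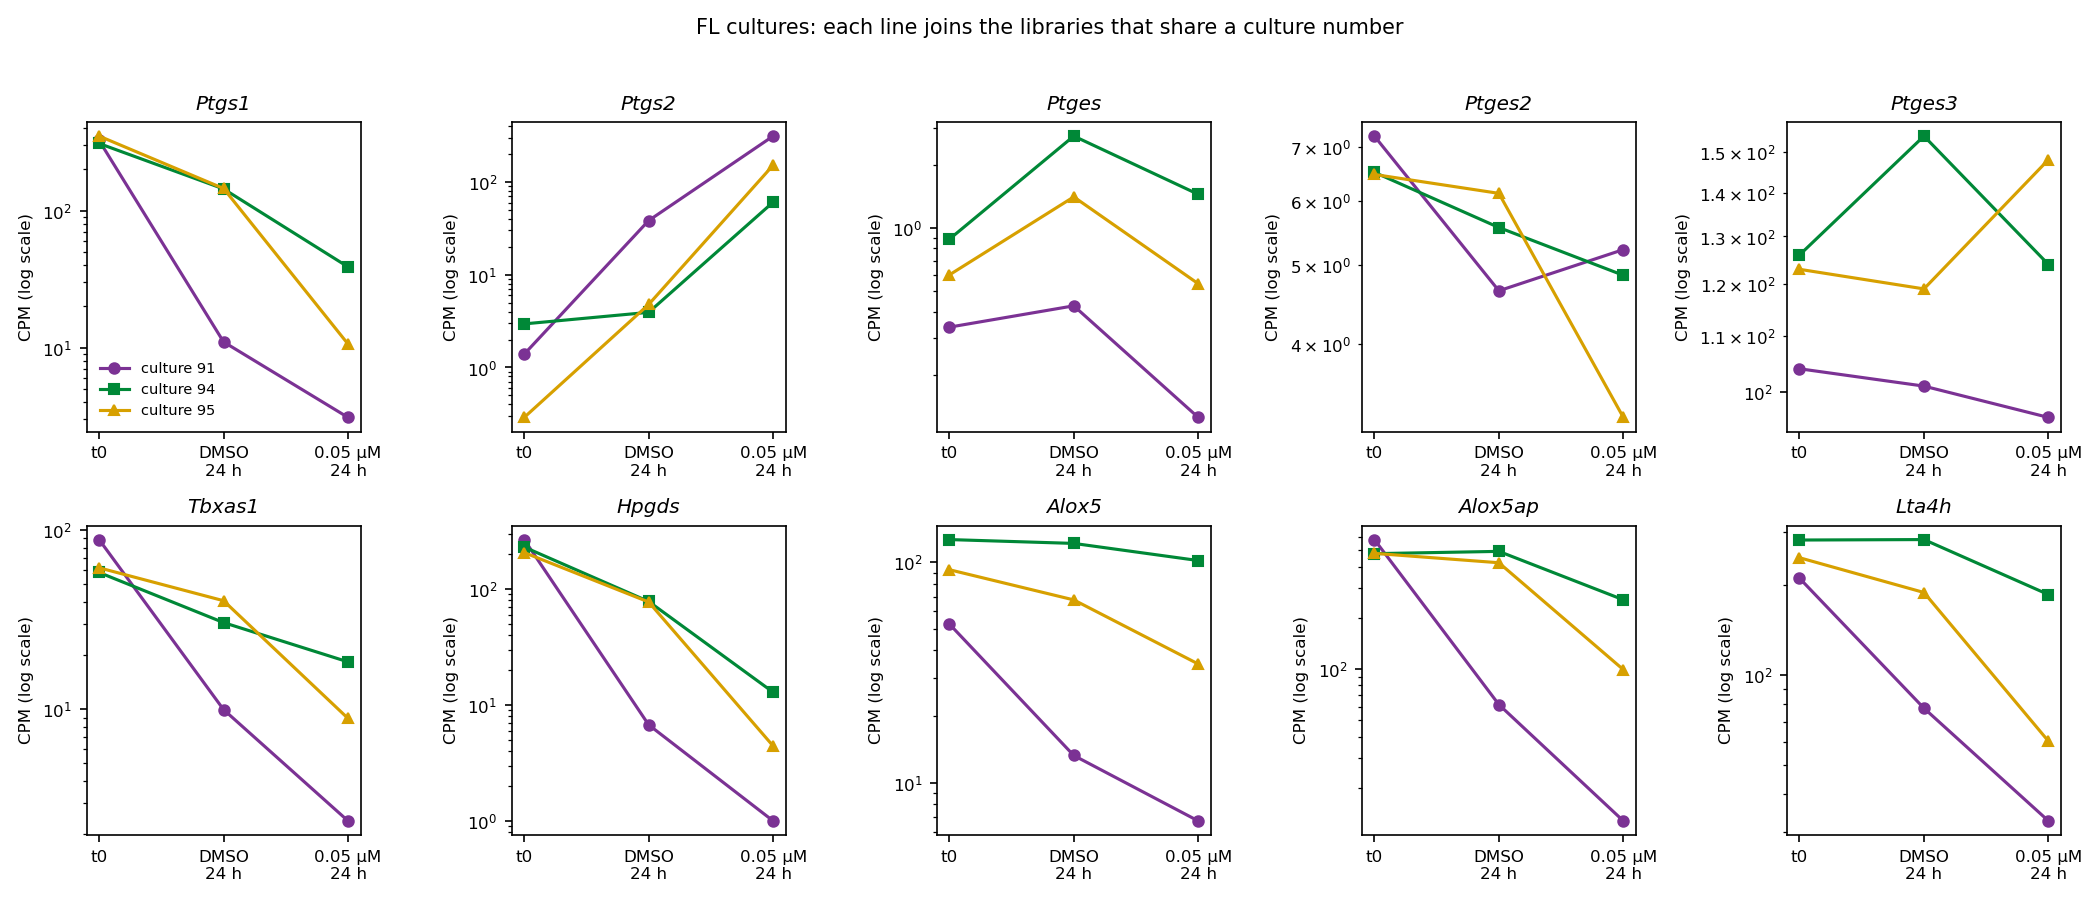
Level of each gene (CPM, log scale) at t0, after 24 h in DMSO and after 24 h with 0.05 µM AZD5582 in FL cultures, with a line for each culture. Lines of Ptgs1, Hpgds and Alox5ap start close together at t0, where they span 309 to 350, 207 to 268 and 476 to 576 CPM, and culture 91 lies far below the other cultures in DMSO.

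From t0 to DMSO in FL cultures no member was called. At t0 Ptgs1 was at 325, 309 and 350 CPM, Hpgds at 268, 231 and 207 CPM and Ptgs2 at 1.39, 2.95 and 0.289 CPM in cultures 91, 94 and 95. All 3 DMSO libraries were lower than their t0 library for Ptgs1, Hpgds, Tbxas1, Ptges2 and Alox5 and higher for Ptgs2 and Ptges. With edgeR 0 of 10 members were called, against 10.1% of all genes tested, and 1 had an unadjusted p under 0.05. DESeq2 called 1 (Ptgs2), and the block called 0 while calling 3107 genes in place of 1619. The log2 changes were 3.34 ± 1.13 for Ptgs2 (adjusted p = 0.0908), -2.11 ± 0.96 for Hpgds (0.182) and -1.71 ± 0.99 for Ptgs1 (0.282). The ranges of 5 members lay apart, as did those of 40.7% of all genes. In culture 91 the log2 difference was -4.88 for Ptgs1 and -5.31 for Hpgds, against -1.10 to -1.27 and -1.42 to -1.56 in the other cultures. Without it Ptgs2 was at 1.37 ± 0.99, Hpgds at -1.50 ± 0.44 and Ptgs1 at -1.20 ± 0.55, and 0 of 10 members were called.

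Per kilobase, the Ptgs2 level was 2.95 of the Ptgs1 level in the DMSO library of culture 91, but 0.0231 and 0.0280 in those of cultures 94 and 95. With AZD5582 the ratios were 86.0, 1.33 and 12.1. In FL cultures Ptgs2 was thus the more abundant transcript in all 3 AZD5582 libraries and in 1 DMSO library. Markers of mature dendritic cells summed to 10526 to 28415 CPM in the FL DMSO libraries and 38398 to 53459 CPM with AZD5582, and neutrophil markers to 2035 to 9833 and 177 to 3562 CPM. The part of either in these values was not tested.

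The culture types differed before treatment in 4 of 10 members, against 40.9% of all 17262 genes tested (23.4% higher, 17.5% lower in FL cultures). Hpgds was higher in FL cultures at t0, at 235 ± 30.8 CPM (mean ± SD, n = 3) against 25.4 ± 6.44 CPM in GM cultures (log2 difference 3.21 ± 0.69, adjusted p = 0.000881). Tbxas1, at 69.5 ± 16.7 against 183 ± 8.42 CPM, was lower (-1.40 ± 0.45, adjusted p = 0.0177). Ptges2 (-1.03 ± 0.16, adjusted p = 3.06e-05) and Ptges (-1.72 ± 0.58, adjusted p = 0.0227) were lower too. The call of Tbxas1 was lost without the t0 library of culture 94 (adjusted p = 0.0656) or 95 (0.061) and without a filter (0.0526). That of Ptges was lost without the t0 library of culture 91 (0.099) or 95 (0.061) or of GM replicate 3 (0.0501). With every library of culture 91 left out, the same 4 members were called: Hpgds (3.10 ± 0.34, adjusted p = 1.19e-06), Tbxas1 (-1.61 ± 0.20, 1.01e-06), Ptges2 (-1.08 ± 0.16, 1.22e-05) and Ptges (-1.43 ± 0.36, 0.00269). With only the groups compared in the fit, Lta4h was called as well (-0.44 ± 0.12, 0.0111). Ptgs1 (log2 difference -0.09, 95% interval -1.42 to 1.23) and Alox5ap (-0.18, interval -1.48 to 1.11) were not called. The added FLT3L, the starting day and the individual cultures cannot be told apart here. Mast cells, which are known to express Hpgds, had higher marker sums in FL cultures at t0 (172 to 629 against 38.5 to 53.6 CPM). In cultures 91, 94 and 95 these sums were 172, 629 and 319 CPM, beside Hpgds at 268, 231 and 207 CPM. In FL DMSO the mast cell sums were higher, at 607 to 1089 CPM, and mean Hpgds was lower, at 54.2 CPM. The part of those cells in the Hpgds level was not tested.

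In DMSO 3 of 10 members differed between the culture types, all lower in FL cultures, against 41.4% of all genes (21.4% lower): Tbxas1 (-2.67 ± 0.47, adjusted p = 0.000152), Ptges2 (-0.80 ± 0.16, adjusted p = 0.000538) and Ptges (-1.45 ± 0.57, adjusted p = 0.0477). Without culture 91, 7 were called, the 4 others being higher in FL cultures: Hpgds (1.96 ± 0.34, adjusted p = 0.000155), Lta4h (1.19 ± 0.28, 0.0021), Alox5 (1.29 ± 0.37, 0.0101) and Ptges3 (0.43 ± 0.17, 0.0404). With only the DMSO library of culture 91 left out, Hpgds (adjusted p = 0.0092) and Lta4h (0.0304) were called and Ptges was not (0.15). Ptges also lost its call without the library of culture 95 (0.11) or any GM DMSO library (0.0731 to 0.0935), with median-of-ratios scaling (0.0597), without a filter (0.081) and with only the groups compared in the fit (0.139).

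The difference between culture types in the change from t0 to DMSO was called for 0 of 10 members, against 4.84% of all genes (835, or 1685 with the block), and no member had an unadjusted p under 0.05. Without culture 91 the difference was called for Lta4h (1.48 ± 0.40, adjusted p = 0.0198) and Alox5 (1.77 ± 0.54, adjusted p = 0.0373), both of which fell in GM cultures. The difference between the response to 0.05 µM in FL and to 0.1 µM in GM cultures, which are not the same dose, was called for 0 of 8 members, against 1.67% of all genes (289, or 738 with the block). Ptges3, with -0.70 ± 0.26, had the 1 unadjusted p under 0.05 (adjusted p = 0.22). DESeq2 called no member in either difference, nor did the fit without culture 91 in the response. In simulated data the first difference was recovered for 15% of 2-fold and 50% of 4-fold changes. Its 0 calls therefore do not show equal changes.

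Ordered by mean level over the 8 groups, Ptgs2 was highest in the AZD5582 groups (243 CPM at 0.5 µM, 233 at 1 µM, 175 in FL cultures at 0.05 µM and 129 at 0.1 µM), whose neighbours in that order overlapped. A gap to 15.7 CPM in FL DMSO and 11.7 CPM in GM DMSO followed, and t0 was lowest, at 2.90 CPM in GM and 1.54 CPM in FL cultures. Tbxas1 was highest in GM t0 (183 CPM) and GM DMSO (171 CPM), which overlapped, followed without overlap by FL t0 (69.5 CPM) and 0.1 µM in GM cultures (43.3 CPM). The lowest was FL with 0.05 µM (9.88 CPM), whose range overlapped 1 µM in GM cultures (18.3 CPM). Hpgds was the member with its highest level in FL t0. Ptges3 varied least between groups, from 101 to 215 CPM.

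Over the 24 libraries, which share cultures and group structure, the genes most like Ptgs2 in log2 CPM were Gja1 (Pearson r = 0.979), a gap junction protein, Runx2 (0.972), a transcription factor, Dnajc1 (0.972), Rnf19a (0.970) and Plat (0.969), tissue plasminogen activator. Plat had a mean of 0.0817 CPM at GM t0, 7.70 in GM DMSO and 124 at 1 µM. Among those most like Tbxas1 were Nfam1 (0.992), Cyth4 (0.987), Gas7 (0.982) and Pitpna (0.981). Nfam1 was at 385 CPM in GM DMSO and 57.7 at 1 µM. Among the members, Ptgs2 correlated with Lta4h at -0.92 and with Tbxas1 at -0.71, as a description over the same libraries.

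A list of 59 other genes of the pathway was read in the same fits. In GM cultures at 1 µM, 34 of 49 tested were called, 5 higher and 29 lower, against 55.1% of all genes (26.9% higher, 28.2% lower). Their median log2 change was -0.96, beside -0.01 over all genes. By role, 9 of 13 phospholipase and release genes were called (2 higher, 7 lower), 6 of 6 other prostanoid synthases and carbonyl enzymes (1 higher, 5 lower), 6 of 10 lipoxygenase and leukotriene genes (all lower), 5 of 9 inactivation and transport genes (all lower) and 8 of 11 receptors (2 higher, 6 lower). The shares of the lipoxygenase (60.0%), inactivation (55.6%) and release (69.2%) genes stood beside the 55.1% of all genes. At 0.1 µM 31 of 49 were called (7 higher), against 40.3% of all genes, and at 0.5 µM 32 of 49 (5 higher), against 53.5%.

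Of the receptors, Ptger4 (EP4, for prostaglandin E2) rose the most, from 153, 173 and 185 CPM in DMSO to 518, 498 and 478 CPM at 1 µM (log2 change 1.66 ± 0.10, adjusted p = 1.76e-10). Ltb4r1 (BLT1, the high-affinity leukotriene B4 receptor) fell from 25.4, 24.4 and 16.2 CPM to 0.671, 0.451 and 0.212 CPM (-5.56 ± 0.31, adjusted p = 1.87e-10). Cysltr1, a receptor for cysteinyl leukotrienes, fell from at least 23.1 CPM in each DMSO library to at most 2.41 CPM in each library at 1 µM (-3.70 ± 0.23, adjusted p = 2.97e-10). The groups did not overlap for any of these. Of the phospholipases A2, Pla2g12a (1.39 ± 0.15, adjusted p = 3.51e-07) and Pla2g2d (1.14 ± 0.16, adjusted p = 8.49e-06) rose, and the cytochrome P450 gene Cyp2s1 fell (-5.30 ± 0.55, adjusted p = 2.95e-07).

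**Figure D4:**
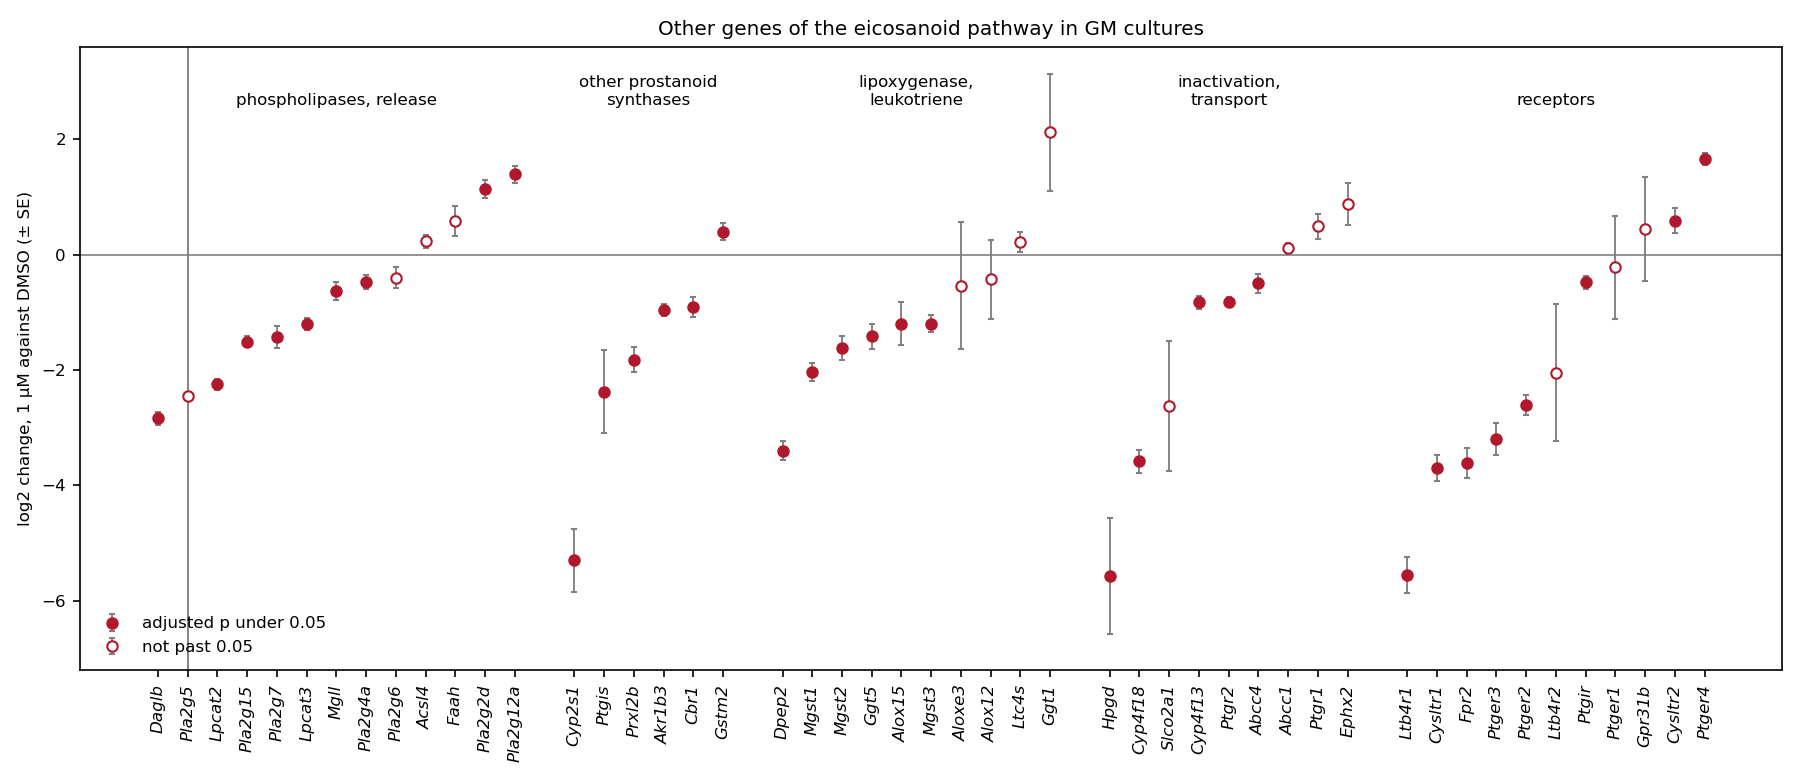
Log2 change (± SE) at 1 µM AZD5582 against DMSO in GM cultures for the 49 tested genes of the wider pathway, grouped by role, with filled points for the 34 at an adjusted p under 0.05. Ptger4 (1.66) and Ltb4r1 (-5.56) lie at opposite ends of the called receptors, and the error bar of Pla2g5 runs past the axis.

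From t0 to DMSO in GM cultures 31 of 49 list genes were called (10 higher, 21 lower), against 47.5% of all genes (27.2% higher, 20.3% lower). Pla2g2d rose from 0.224, 0.132 and 0.195 CPM to 3.87, 4.18 and 3.88 CPM (4.40 ± 0.22, adjusted p = 3.03e-11), and Ptger4 (1.90 ± 0.10, adjusted p = 5.04e-11) and the prostamide synthase gene Prxl2b (1.65 ± 0.21, adjusted p = 4.22e-06) rose as well. Alox15, the 12/15-lipoxygenase of mouse, fell from 32.1, 42.4 and 41.1 CPM to 1.52, 1.90 and 2.19 CPM (-4.39 ± 0.33, adjusted p = 1.62e-08). In FL cultures Alox15 had 23.2, 51.9 and 37.4 CPM at t0 and 7.53, 87.9 and 42.8 CPM in DMSO, and the difference in change between culture types was called (4.67 ± 1.05, adjusted p = 0.0129), though not without a filter (0.0524).

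In FL cultures at 0.05 µM 3 of 44 list genes were called, all lower, against 2.90% of all genes. The block called 6 and DESeq2 8, all lower, and the fit without culture 91 called 11, 3 higher and 8 lower. Hpgd, which inactivates prostaglandins, had 0.786, 3.99 and 3.57 CPM in DMSO and 0, 0 and 0.0452 CPM with AZD5582, 297 against 2 counts over the groups (adjusted p = 0.0104). Cyp2s1 had 0.688, 4.36 and 5.87 CPM in DMSO and 0.0139, 0.101 and 0.0226 CPM with AZD5582 (adjusted p = 0.0208). Lpcat2, a phospholipid remodelling enzyme, fell from 64.0, 69.2 and 63.3 to 23.7, 34.8 and 25.7 CPM (-1.23 ± 0.21, adjusted p = 0.0252). In these genes the groups did not overlap, culture 91 included, but the calls depended on the fit and on single libraries. With only the groups compared in the fit, Hpgd (0.0852), Cyp2s1 (0.0952) and Lpcat2 (0.0812) were not called. Without the DMSO or the AZD5582 library of culture 95 no call of these 3 remained (adjusted p 0.0542 to 0.13). Without the AZD5582 library of culture 91 or the DMSO library of culture 94, Cyp2s1 (0.0659 and 0.0519) and Lpcat2 (0.0786 and 0.0735) were not called. From t0 to DMSO 4 of 44 were called (11 with the block, 10 with DESeq2, 8 without culture 91), against 10.1% of all genes. Ptger4 rose (1.22 ± 0.27, adjusted p = 0.0294), and Hpgd (-2.93 ± 0.63, 0.0287), Cyp2s1 (-2.80 ± 0.73, 0.0464) and Acsl4 (-0.58 ± 0.15, 0.0439), an acyl-CoA synthetase for arachidonic acid, fell. Each of these 4 calls was lost without any of the 3 t0 libraries (adjusted p 0.0747 to 0.172). The DMSO library of culture 95 was needed too for Hpgd, Cyp2s1 and Acsl4 (0.0619 to 0.11), and that of culture 94 for Cyp2s1 and Acsl4 (0.0775 and 0.0833). With only the groups compared, Ptger4 (0.0546), Cyp2s1 (0.0707) and Acsl4 (0.0745) were not called, nor were Cyp2s1 (0.0792) and Acsl4 (0.0714) without a filter, nor Acsl4 with median-of-ratios scaling (0.0578).

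Between the culture types, 30 of 52 list genes were called at t0 (5 higher and 25 lower in FL cultures), against 40.9% of all genes, and 28 of 52 in DMSO (5 higher, 23 lower), against 41.4%. At t0 Hpgd was higher in FL cultures, at 24.3, 17.4 and 22.4 CPM against 0.972, 1.05 and 1.22 CPM in GM cultures (4.30 ± 0.62, adjusted p = 1.34e-05). The platelet-activating factor hydrolase gene Pla2g7 was lower, at 21.0, 17.2 and 24.7 against 323, 278 and 272 CPM (-3.79 ± 0.26, adjusted p = 6.28e-10). FL cultures at t0 thus held higher transcript levels of both the prostaglandin D2 synthase Hpgds and the prostaglandin dehydrogenase Hpgd. The difference in response to AZD5582 was called for 2 of 52 genes, against 1.67% of all genes. The block and DESeq2 each called 4 of 52 and the fit without culture 91 called 6 of 51. Those 2 were Ltb4r1 (4.15 ± 0.82, adjusted p = 0.0127) and Prxl2b (2.32 ± 0.43, adjusted p = 0.00821). With only the groups compared in the fit neither was called (0.178 and 0.156), and without a filter Ltb4r1 was not (0.0524). Ltb4r1 had 6.62, 13.8 and 10.4 CPM in FL DMSO and 1.45, 14.3 and 3.91 CPM with 0.05 µM.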

How the data were processed

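The authors deposited raw counts per gene, with no normalization, for 24 libraries made with the TruSeq Stranded mRNA kit, per the labels' protocols. The build GRCm39 and the tools STAR 2.7.3a (an aligner), HTSeq 0.12.4 (a counter) and DESeq2 1.30.1 are named, per the submitters' processing notes. For the counting, the sources used here give neither annotation release nor strand setting, so Ptgs1, Tbxas1 and Alox5ap, which overlap exons of an opposite-strand gene by 148, 144 and 189 bases, are uncertain. Lines that name no gene (10.98% to 16.423% of counts) stayed out. Symbols and exon lengths came from GENCODE M21 (GRCm38), which names 52081 of 55414 IDs.

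Comparisons were made in R 4.3.3 by edgeR 4.0.16 (TMM, filterByExpr, robust quasi-likelihood fit, group means, no block), with the 15 GM libraries, the 9 FL libraries or all 24 libraries in a fit. The fit was checked on simulated data, with 100 genes changed at each of 2 folds. At 1 µM against DMSO in GM cultures it recovered 62% of 2-fold and 76% of 4-fold changes. At 0.05 µM in FL cultures it recovered 2% and 62%. For the difference between culture types in the change from t0 to DMSO it recovered 15% and 50%. The real comparisons called more genes than were changed in the simulation (8899, 463 and 835 in this order). The simulated libraries also held no shift shared within a culture, so recovery in the real data may differ. DESeq2 1.42.0, other scaling, no filter, other sets of libraries, a replicate block and each library left out were the alternatives. No 2 libraries agreed within sampling noise. In FL cultures the numbers pair the samples, from the culture names and the correlations given in the results. In GM cultures they were read as pairs only between 0.1 and 1 µM. In the other GM comparisons the correlations were weak or mixed, and pairing there is uncertain. The members and gene lists were chosen with earlier results of these data known. All 10 members are named. Of the list, each comparison's up to 3 largest called rises and falls with a group mean of at least 1 CPM were eligible, and a selection is given, with shared genes also shown elsewhere. Genes most like a member needed a group mean of at least 10 CPM, with 0.5 CPM added before the logarithm. One gene that met this rule is not reported here. Promoter sequences are RefSeq's (GRCm38.p6, 9 of 10 members).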

Additional observations from a re-analysis of the deposited data

How the results depend on the processing

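FL results depend most on the choices: 3 cultures spread widely there, and the libraries of culture 91 were left out as an alternative chosen after seeing the data. Of 1812 values of single genes under the alternatives, 1660 kept their direction and side of the threshold, 101 lost and 32 gained a call, 17 turned sign and 2 with no test moved by more than the spread between replicates. Group means of members moved by a factor of 0.959 to 1.03 with median-of-ratios size factors and 0.879 to 1.17 with total counts. The causes were not tested.

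With all 24 libraries in 1 fit, GM cultures at 0.1 µM called 3874 genes and 3 of 8 members, the step from 0.1 to 1 µM 441 genes and 0 members, and DMSO against t0 3 of 10 members. Ptgs1 at 1 µM then had an adjusted p of 0.0533. FL cultures called 2721 genes and 2 members at 0.05 µM and 5307 genes and 3 members for DMSO against t0. With only the groups compared, the counts of genes were 1785 (0.1 to 1 µM), 31 (FL 0.05 µM), 582 (FL DMSO against t0), 3866 (FL against GM in DMSO), 261 (difference of 24 h changes) and 17 (difference of responses). DESeq2 called 1526 genes and 1 member at 0.05 µM, 3503 and 1 for FL DMSO against t0, and 646 genes for the difference of responses. Without a filter the 2 differences between culture types gave 503 and 187 genes. Without culture 91, 2283 genes and 2 members were called at 0.05 µM, 7 members in FL against GM in DMSO, 2596 genes and 2 members for the difference of 24 h changes, and 800 genes for the difference of responses.

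The replicate block called 1098 genes at 0.05 µM, 3107 for FL DMSO against t0, 1685 for the difference of 24 h changes and 738 for that of responses. It changed no call of a member in FL comparisons. In GM cultures 17 of 30 same-numbered pairs correlated over 0.1 (0.01 to 0.48) and 25 of 30 correlated best with their own number. All 3 pairs were over 0.1 between 0.1 and 1 µM, and between 0.1 and 0.5 µM, which were not compared. In the other GM comparisons same-numbered pairs correlated at 0.03 to 0.20. Most of those pairs correlated best with their own number, so the numbers may pair the samples there too. In those comparisons the block raised each count of genes called, by less than 1.5 times, and left the number of members called as it was. No paired analysis was possible for FL against GM at t0 or in DMSO because cultures are nested in the culture type.

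With each replicate left out in turn, genes called ranged from 17 to 1983 (FL 0.05 µM), 13 to 1454 (FL DMSO against t0), 486 to 1869 (difference of 24 h changes), 93 to 591 (difference of responses) and 1831 to 2937 (GM 0.1 to 1 µM). At 0.05 µM the lowest count came without the DMSO library of culture 95 and the highest without that of culture 91. Members called ranged from 3 to 5 (GM 0.1 to 1 µM), 0 to 1 (FL 0.05 µM) and 2 to 4 (FL against GM at t0, and also in DMSO).

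Every sign change was in a member that was not called. At 0.05 µM in FL cultures Ptges3 ranged from -0.15 to 0.16 with single libraries left out (above 0 without AZD5582 culture 91 or 94 or DMSO culture 94) and was 0.03 without culture 91, and Alox5 ranged from -1.67 to 0.24 (above 0 without AZD5582 culture 91 or DMSO culture 94). For FL DMSO against t0 Ptges3 ranged from -0.09 to 0.21 (below 0 without DMSO culture 94 or t0 culture 91) and Alox5 from -1.16 to 0.06 (above 0 without DMSO culture 91). For FL against GM the sign turned without the library of culture 91. Ptges3 at t0 ranged from -0.12 to 0.01 (0.01 without all of culture 91), and in DMSO Ptgs1 from -0.65 to 0.24 (0.25), Ptgs2 from -1.43 to 0.87 (-1.42) and Alox5ap from -0.89 to 0.03 (0.03).

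Depth limited Ptges most, with 9 to 89 counts in an FL library, and Ptgs2 had 15 counts in the t0 library of culture 95.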
